A study of Homo sapiens with 2 samples.

Results

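Receptor tyrosine kinases and the growth factors that bind them, with the insulin-like growth factor (IGF) binding proteins, were described in PC3 cells that overexpressed miR-95. The members were taken by gene symbol alone, from a fixed pattern of family names that uses no values. The pattern itself was chosen with earlier results of these data known. The pattern matched 103 of 23641 probe sets, which name 102 of the 13864 genes with a symbol. Grouped by name, they comprise 35 receptors, 48 ligands, 7 IGF binding proteins and IGF2R, the receptor that clears IGF2. The other 11 carry a matching name without being a receptor or growth factor themselves: 7 antisense, intronic or divergent transcripts, 2 FGF7 pseudogenes, FGFR1OP2 and PDGFRL.

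PC3 is a human prostate cancer cell line that grows without androgen. One PC3 line stably overexpressed a control miR and the other stably overexpressed miR-95, in order to look for transcripts that change with this microRNA. Both lines were grown in the same serum-containing medium, and total RNA of each was hybridised to 1 Affymetrix gene array. Whether each line was 1 clone or a pool, and which vector carried the microRNA, is not stated in the labels. With 1 array per group no value has a replicate error, and no difference can be tested between conditions. In bulk RNA a change in the share of cells that express a gene and a change per cell cannot be told apart.

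The deposited values are log2 expression values. Differences and folds below are miR-95 against control after each array was centred on its median over genes. This took 0.035 more from the miR-95 array than from the control array. A gene counted as detected when the mean of its 2 centred values was at or above that median, which kept 6949 genes. Among detected genes the median difference was -0.035 and the robust SD of the differences was 0.148. Probe sets of one gene disagreed with a pooled SD of 0.132 over the 67 detected genes with several probe sets, which is a guide to measurement disagreement and holds no variation between cultures. Of 6 genes listed for the epithelial line, the 5 with a probe set were all detected. These were KRT8, KRT18, KRT19, EPCAM and VIM, of which VIM is not specific to epithelium. CDH1 had no probe set used here. Both measured genes of the androgen axis, KLK2 and KLK3, lay below the filter, as did the endothelial VWF and the stromal DCN and LUM. The only leukocyte marker with a probe set was CD68, at 11.42 on the control array and 11.56 on the miR-95 array, so that list could not be judged.

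Receptor tyrosine kinases span the cell membrane and phosphorylate each other when a ligand brings them together, which recruits adaptors that lead to the RAS, PI3K and phospholipase C pathways. Most ligands are secreted or are shed from the membrane, whereas ephrins remain on the cell surface and signal between touching cells in both directions. In prostate cancer cells, autocrine ligands and receptors such as EGFR, MET and IGF1R are known for their part in growth and motility.

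The microRNA itself is shown because its seed, the bases by which it pairs with messenger RNA, defines what the overexpression could act on directly. The mature forms come from RefSeq (GRCh38.p14), written 5′ to 3′ with the seed, bases 2 to 8, in capitals. The labels do not say which arm the vector was made to express.
hsa-miR-95-3p: uUCAACGGguauuuauugagca
hsa-miR-95-5p: uCAAUAAAugucuguugaauu
A fully paired site for the 3p seed reads CCGUUGA in a transcript and one for the 5p seed reads UUUAUUG. Each seed occurs in 1 mature microRNA of the RefSeq table. No transcript sequences were used here, so which members carry a site was not examined. No probe set used here named miR-95.

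Of the 102 members, 40 were detected (39.2%, against 50.1% of all genes). None reached 1.5-fold in either direction, a size that 1.14% of all detected genes reached (0.345% higher and 0.791% lower). A smaller limit, 0.32 on the log2 scale (a level 25% higher on one array than on the other), was also used. By this limit 6 of 40 members were higher on the miR-95 array (15.0%, against 2.92% of all detected genes) and 2 were lower (5.0%, against 5.08%). The higher members were EFNB1, FGF5, EFNA3, PDGFRL, INSR and IGFBP3, and the lower ones were FGFR1OP2 and KITLG. The median difference was 0.125 over the 40 detected members and -0.035 over all detected genes, and 65.0% of the members against 40.5% of all detected genes were positive. The 62 members below the filter lay the other way, with 23 positive and 39 negative, between -0.395 and 0.315. Of all 6915 genes below the filter, 3163 were positive and 3751 negative, a smaller lean in the same direction. Without a filter the median over all 102 members was -0.01, so the higher level of the members is a statement about those with a signal above the array median. None of these counts has a test.

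**Figure D1:**
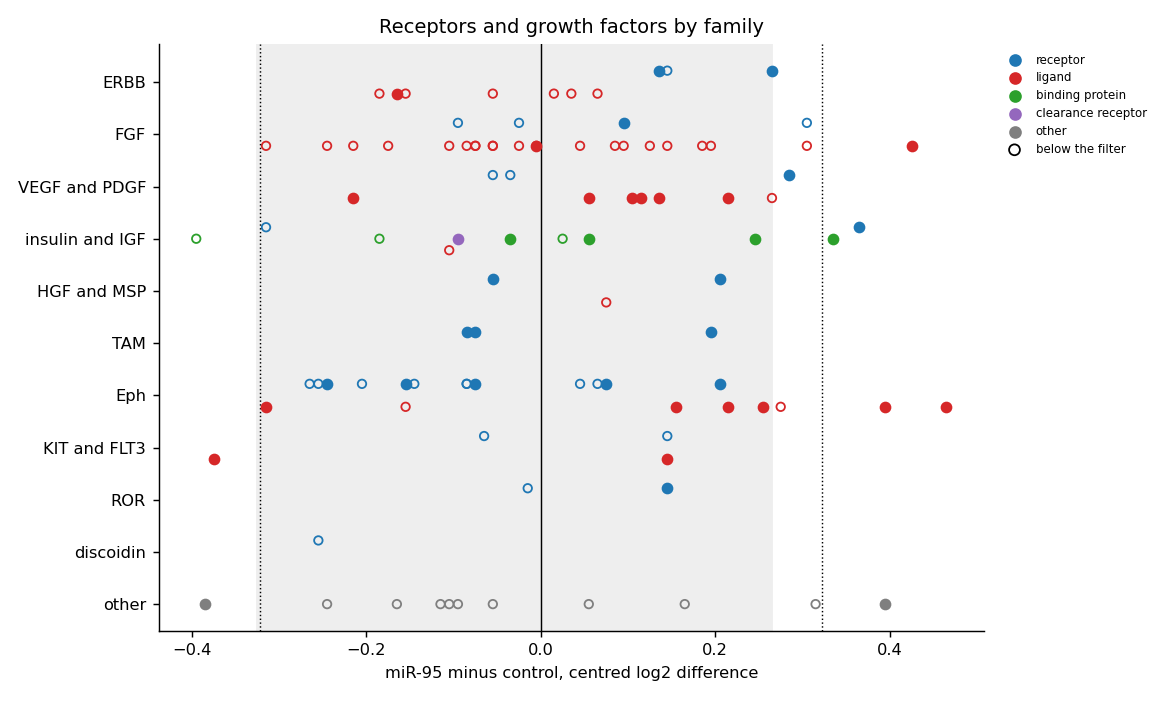
Centred log2 difference (miR-95 minus control, horizontal axis) of each member, with families in rows. Filled points are detected members, open points lie below the filter, colours give the role, the grey band holds the 5th to 95th percentile of all detected genes (-0.325 to 0.265) and dotted lines mark 0.32 each way. Filled points of EFNB1 (0.465) and FGF5 (0.425) lie farthest to the right, and no point reaches 1.5-fold.

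The 16 detected receptors had a median difference of 0.115, with 10 higher and 6 lower, and ranged from -0.245 (EPHA7) to 0.365 (INSR). The 17 detected ligands had a median of 0.135, with 12 higher and 5 lower, and ranged wider, from -0.375 (KITLG) to 0.465 (EFNB1). Higher by any amount were 62.5% of these receptors and 70.6% of these ligands, against 40.5% of all detected genes. Past 0.32, 1 receptor (6.25%) and 3 ligands (17.6%) were higher, against 2.92% of all detected genes. Lower past that limit were 0 receptors and 1 ligand (5.88%), against 5.08%. The medians of receptors and ligands depended on the filter. They were -0.035 for receptors and 0.04 for ligands without one, -0.035 and 0.075 with a filter at the 25th percentile, and 0.04 and 0.255 with one at the 75th. The last filter kept only 16 members of all roles together. The difference between receptors and ligands was not tested. Gene span moved with these values. Across all detected genes the difference was lower for genes of longer span (Spearman's rho = -0.236 over 6949 genes, which are not independent), and over the 40 detected members rho was -0.337. All 5 detected ligands among the 25% of genes with the shortest span were higher on the miR-95 array, with a median of 0.215. Of all detected genes of that bin 56.0% were higher, with a median of 0.015. These ligands were VEGFB and the ephrins EFNA1, EFNA3, EFNA4 and EFNB3. Among the longest 25%, 4 of 6 detected ligands were lower, with a median of -0.11. All detected genes of that bin were close to this, with 1218 of 1738 lower and a median of -0.075. The 7 detected receptors of the longest bin had a median of 0.075. The part of gene span in the differences was not tested.

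**Figure D2:**
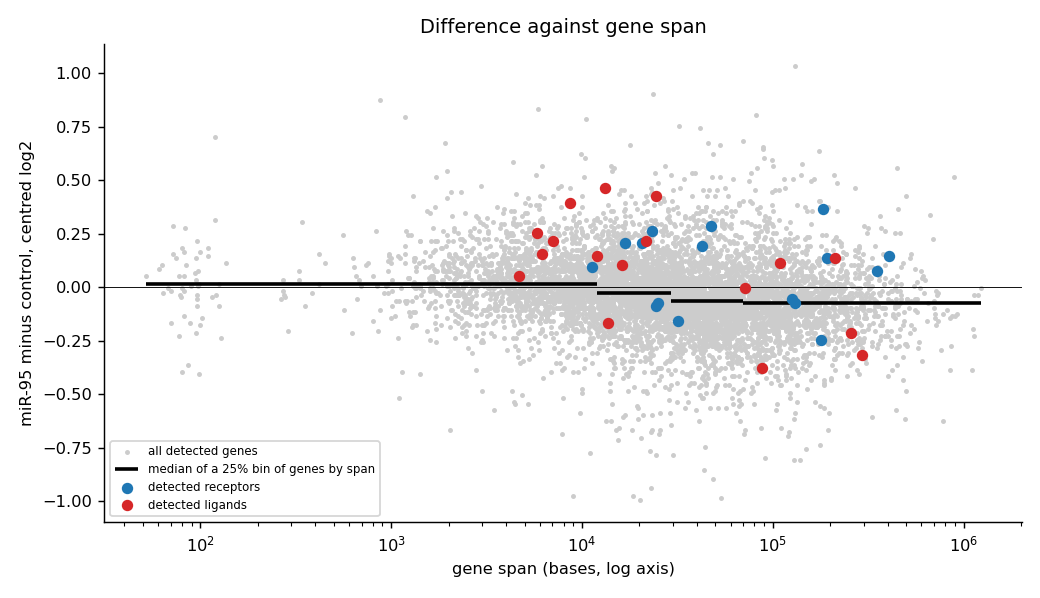
Centred log2 difference against gene span in bases (log axis) for all 6949 detected genes (grey), detected receptors (blue) and detected ligands (red), with the median of each 25% of genes by span as a black line. Ligand genes among the shortest 25% by span lie above 0, and the lowest ligand values (KITLG, EFNA5, PDGFD) belong to long genes. The black lines step down from 0.015 to -0.075.

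The ephrins, the cell-surface ligands of the Eph receptors, held the highest member and another of the 6 higher members past 0.32. Of 8 ephrins measured, 6 were detected, and 5 of these were higher on the miR-95 array (83.3%, against 40.5% of all detected genes). The median was 0.235. EFNA1, EFNA3, EFNA4 and EFNB3 are the same genes counted above among the ligands of shortest span, so the 2 patterns are not separate. EFNB1, a transmembrane ephrin, read 10.56 on the control array and 11.06 on the miR-95 array, 1.38-fold higher after centring. It ranked 59th from the highest of the 6949 detected genes. EFNA3, which is anchored by a lipid, read 9.01 and 9.44 (1.31-fold higher, rank 107). EFNA4 read 10.14 and 10.43, 1.19-fold higher. EFNA1, a ligand of EPHA2 often induced by inflammatory signals, read 7.86 and 8.11, 1.16-fold higher. EFNB3 was 1.11-fold higher (8.66 and 8.85). EFNA5 went the other way, at 8.91 and 8.63, 1.24-fold lower. The values of EFNB1 and EFNA3 are about 3 times the robust SD of all detected genes, while that of EFNA1 is within about 2 of it. Of the ephrins below the filter, EFNA2 differed by 0.275 and EFNB2 by -0.155.

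The Eph receptors did not share that direction. Of 13 measured, 5 were detected, 2 higher and 3 lower, with a median of -0.075. Their share of higher genes, 40.0%, was near the 40.5% of all detected genes, whose median was -0.035. EPHA2, the receptor of this family best known in carcinoma cells, read 11.35 on the control array and 11.23 on the miR-95 array (1.11-fold lower). EPHA7 read 7.69 and 7.48, 1.19-fold lower, and EPHB4 read 9.92 and 9.88, 1.05-fold lower. EPHB3 was 1.15-fold higher (7.55 and 7.79) and EPHA5 1.05-fold higher (7.54 and 7.65). The 8 Eph receptors below the filter lay between -0.265 and 0.065, and 6 of them were lower. Of all 6915 genes below it 3751 were lower, a smaller share.

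Adjacent members in the RefSeq gene order were set beside their neighbours. EFNA4, EFNA3 and EFNA1 follow one another on chromosome 1, and all 3 were higher on the miR-95 array. The next detected genes on either side were nearer to 0. ADAM15, a metalloproteinase gene before EFNA4, differed by 0.045, and ZBTB7B by -0.035. Beyond EFNA1, DPM3 differed by 0.095 and KRTCAP2 by 0.025. RefSeq also lists a readthrough gene, EFNA4-EFNA3, whose transcripts could be read by probe sets of either gene. Of the other runs with several measured members, none had more than 1 detected. IGFBP1 and IGFBP3 lay at -0.395 and 0.335, and KIT and KDR at 0.145 and 0.285, where IGFBP1 and KIT were below the filter. FGF19, FGF4 and FGF3 were all below the filter, at -0.025, -0.215 and 0.125, close to CCND1, which encodes cyclin D1 and differed by -0.625. FGF23 and FGF6, also below the filter, were at -0.315 and -0.075.

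**Figure D3:**
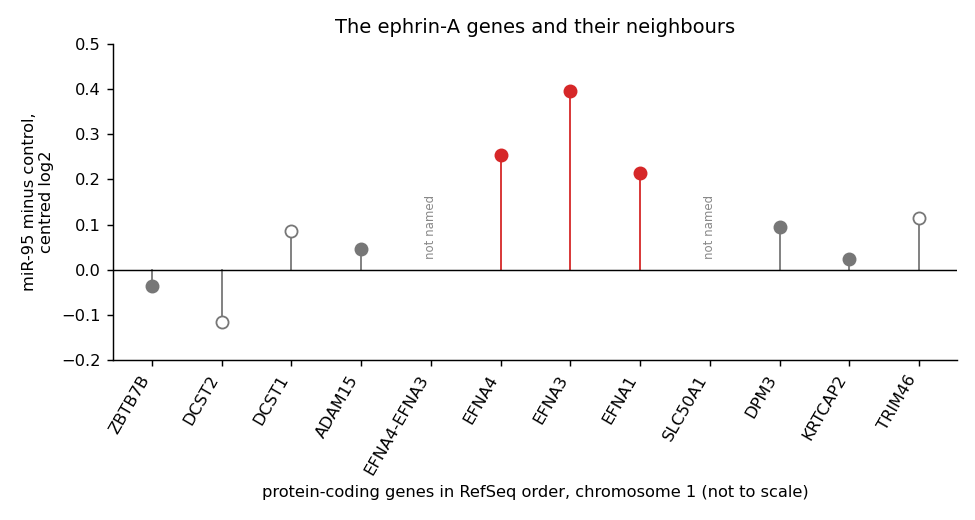
Centred log2 difference (vertical axis) of the ephrin-A genes (red) and the 4 protein-coding genes on each side (grey) in RefSeq order, with filled points for detected genes and open points for genes below the filter. EFNA4, EFNA3 and EFNA1 lie at 0.255, 0.395 and 0.215, and the measured neighbours lie between -0.115 and 0.115.

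The 250 bases upstream of the start of these ephrin genes are shown because EFNA4, EFNA3, EFNA1 and EFNB1 lay higher together while EFNA5 lay lower. They come from RefSeq (GRCh38.p14), are written 5′ to 3′ on the strand of the gene, and carry in capitals each GC box, searched as GGGCGG and its reverse complement CCGCCC.
EFNA4: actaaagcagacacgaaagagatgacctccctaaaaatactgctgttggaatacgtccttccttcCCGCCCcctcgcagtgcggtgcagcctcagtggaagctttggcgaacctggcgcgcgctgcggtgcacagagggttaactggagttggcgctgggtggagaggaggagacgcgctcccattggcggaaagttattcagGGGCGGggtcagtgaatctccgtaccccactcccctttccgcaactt
EFNA3: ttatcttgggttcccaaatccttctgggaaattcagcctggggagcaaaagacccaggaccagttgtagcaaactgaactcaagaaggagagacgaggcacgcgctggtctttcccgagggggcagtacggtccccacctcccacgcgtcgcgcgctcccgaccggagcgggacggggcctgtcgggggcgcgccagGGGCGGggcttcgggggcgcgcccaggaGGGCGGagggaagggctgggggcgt
EFNA1: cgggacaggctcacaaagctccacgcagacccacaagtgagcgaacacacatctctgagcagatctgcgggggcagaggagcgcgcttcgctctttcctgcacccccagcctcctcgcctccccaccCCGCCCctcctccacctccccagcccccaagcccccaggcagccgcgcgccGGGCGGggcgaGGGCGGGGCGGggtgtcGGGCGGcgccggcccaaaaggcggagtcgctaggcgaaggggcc
EFNB1: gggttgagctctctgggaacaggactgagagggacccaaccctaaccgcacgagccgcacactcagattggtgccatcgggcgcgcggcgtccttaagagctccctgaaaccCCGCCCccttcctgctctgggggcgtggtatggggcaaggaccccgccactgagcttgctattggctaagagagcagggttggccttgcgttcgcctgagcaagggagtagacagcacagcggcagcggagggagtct
EFNA5: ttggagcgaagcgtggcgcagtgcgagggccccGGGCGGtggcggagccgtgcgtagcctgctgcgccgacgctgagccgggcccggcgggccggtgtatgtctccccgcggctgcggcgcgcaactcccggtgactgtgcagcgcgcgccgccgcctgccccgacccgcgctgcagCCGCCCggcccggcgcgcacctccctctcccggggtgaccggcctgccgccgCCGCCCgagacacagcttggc
These windows lie at chr1:155063490-155063739, chr1:155078587-155078836, chr1:155127626-155127875 and chrX:68828771-68829020 on the plus strand, and at chr5:107670938-107671187 on the minus strand. They hold 2, 2, 5, 1 and 3 GC boxes, counting overlapping matches, so the count in EFNA5 lies within the range of the higher genes. A CCAAT box (CCAAT or ATTGG) was found once in EFNA4 and 2 times in EFNB1 and in none of the other 3. None holds TATAAA or TTTATA. A GC box was present in 42.6% of the 35116 RefSeq windows of this length, in 70.9% of the windows of the 5752 detected genes in the table and in 7 of the 7 ephrin windows it holds. It was also present in 14 of 15 windows of detected receptors (93.3%) and in 12 of 13 of detected ligands (92.3%), so it does not set the ephrins apart. A CCAAT box was present in 32.0% of all windows and 36.2% of those of detected genes. TATAAA or TTTATA was present in 10.7% of all windows. The GC content of the shown windows ran from 58.4% (EFNA4) to 79.6% (EFNA5). Over the detected genes with a window, the difference had a Spearman's rho of 0.08 with GC content.

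In the insulin and IGF family the 2 receptors lay on opposite sides. INSR, the insulin receptor, read 8.46 on the control array and 8.86 on the miR-95 array, 1.29-fold higher and 135th from the highest of all detected genes. IGF1R, the receptor of IGF1 and IGF2, read 7.32 and 7.04, a difference of -0.315, but lay below the filter. IGF2R read 9.88 and 9.82 (1.07-fold lower). The ligand IGF1 was below the filter on these arrays (5.34 and 5.27). The IGF binding proteins carry IGFs outside the cell and limit or prolong their action. Of 7 genes with such a name, 4 were detected and 3 of these were higher. IGFBP3, the main IGF carrier of serum, read 8.98 and 9.35 (1.26-fold higher), and IGFBP5 read 9.16 and 9.44 (1.19-fold higher). IGFBP6, which prefers IGF2, was 1.04-fold higher (8.80 and 8.89). IGFBP4 read 12.39 on both arrays. IGFBP1, below the filter, read 5.86 and 5.50 and was the only member below the filter past 0.32, at -0.395. INSR spans 182150 bases and so runs against the decline of the differences with gene span.

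**Figure D4:**
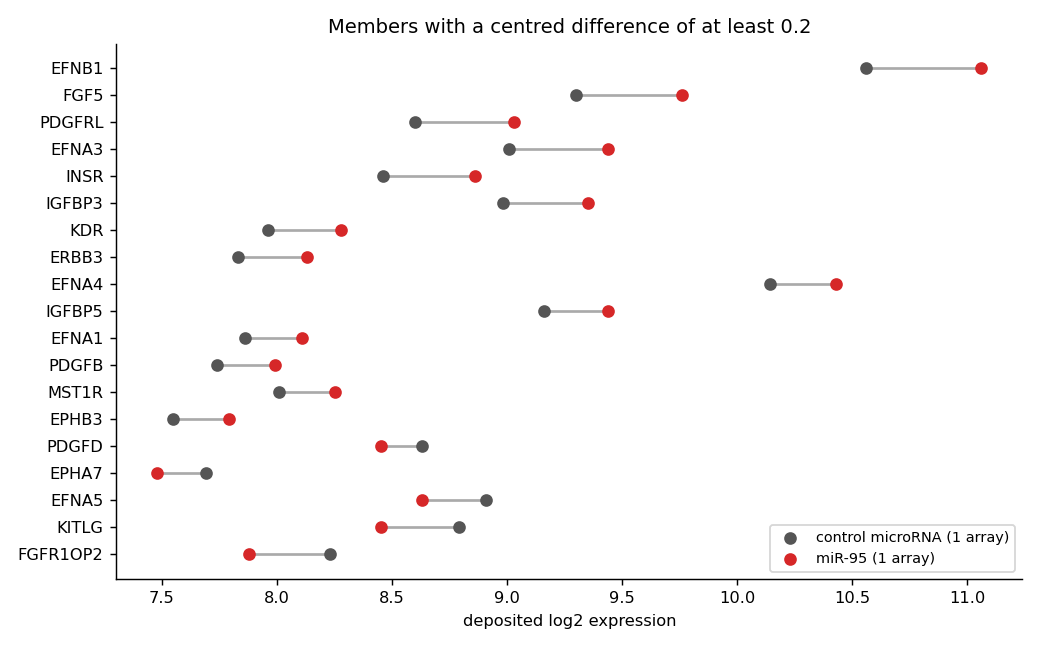
Deposited log2 expression (horizontal axis) on the control array (grey) and the miR-95 array (red) for the 19 detected members whose centred difference was at least 0.2 either way, ordered by that difference. Positions of different genes are not comparable because each has its own probe sets. EFNB1 is at the top (10.56 and 11.06) and FGFR1OP2 at the bottom (8.23 and 7.88).

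In the ERBB family both detected receptors were higher. EGFR read 9.93 and 10.10, a difference of 0.135. ERBB3, which has an impaired kinase and signals through its partners, read 7.83 and 8.13, a difference of 0.265. ERBB4 lay below the filter (5.72 and 5.90). HBEGF, a membrane-anchored ligand of EGFR, was the only detected ligand and was 1.12-fold lower (9.14 and 9.01). The other 6 measured ligands, EGF, EREG and the neuregulins NRG1 to NRG4, lay below the filter with differences between -0.185 and 0.065. Further ERBB ligands from the list of pathway partners, BTC and EPGN, which flank AREG and EREG in the RefSeq gene order, also lay below the filter. BTC (betacellulin) read 7.54 on the control array and 7.12 on the miR-95 array, a difference of -0.455. EPGN (epigen) read 5.67 and 6.20, a difference of 0.495, so these dim ligands differed by more than any member of the family and in opposite directions. No probe set used here named ERBB2, AREG or TGFA, so the main partner of ERBB3 and 2 frequent autocrine ligands were not seen.

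Among fibroblast growth factors (FGFs) 2 of 22 genes grouped by name as ligands were detected. The 22 include FGF11 to FGF14, and whether each binds a receptor was not examined. FGF5, a secreted FGF known for ending the growth phase of hair, read 9.30 on the control array and 9.76 on the miR-95 array. It was 1.34-fold higher and ranked 84th from the highest of all detected genes. FGF2, basic FGF, read 11.64 and 11.67, a centred difference of -0.005. The 20 ligands below the filter ranged from -0.315 (FGF23) to 0.305 (FGF18), with 8 higher and 12 lower. FGFR4 was the only detected receptor, 1.07-fold higher (7.85 and 7.98). The other receptors lay below the filter, with FGFR1 at -0.095, FGFR2 at 0.305 and FGFR3 at -0.025. FGFR1OP2, a coiled-coil protein named for its fusion with FGFR1 and not a receptor, was 1.31-fold lower (8.23 and 7.88). FGF7P3 was the only member read by several probe sets. They read 4.97 and 8.66 on the control array and 5.43 and 8.90 on the miR-95 array, both higher before and after centring. FGF7 and its pseudogenes are similar in sequence, so signal between their probe sets may be shared.

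The vascular endothelial and platelet-derived growth factors (VEGF and PDGF) differed by small amounts. Of 6 detected ligands, 5 were higher (83.3%, against 40.5% of all detected genes), with a median of 0.11 against -0.035. None of them, nor the detected receptor, passed 0.32, and each of the 6 ligand values lies within 2 robust SDs of all detected genes. PDGFB read 7.74 and 7.99 (1.16-fold), PDGFC 7.41 and 7.58 (a difference of 0.135) and VEGFC, which acts on lymphatic vessels, 11.07 and 11.22 (1.08-fold). VEGFA was 1.08-fold higher (8.68 and 8.82) and VEGFB 1.04-fold higher (8.82 and 8.91). PDGFD, a ligand activated by proteolysis, read 8.63 and 8.45 and was 1.16-fold lower. PDGFA, below the filter, differed by 0.265. KDR, the main receptor of VEGFA on endothelial cells, read 7.96 and 8.28 (1.22-fold higher), while the endothelial marker VWF read 5.81 and 5.82 on the same arrays. FLT1 (7.12 on both arrays) and FLT4 (5.89 and 5.87) lay below the filter. PDGFRL, a secreted relative of the PDGF receptors without a kinase, was 1.31-fold higher (8.60 and 9.03). No probe set used here named PDGFRA or PDGFRB.

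The KIT ligand KITLG, or stem cell factor, was the lowest detected ligand. It read 8.79 on the control array and 8.45 on the miR-95 array, 1.30-fold lower and 214th from the lowest of all detected genes. Its receptor KIT lay below the filter (4.85 and 5.03). FLT3LG read 9.19 and 9.37 (1.11-fold higher), and its receptor FLT3 was below the filter (5.06 and 5.03). Thus neither ligand had a detected receptor on these arrays. MET, the receptor of hepatocyte growth factor, was nearly level at 12.44 and 12.42 (1.04-fold lower), and its ligand HGF was below the filter (5.08 and 5.19). MST1R, the related receptor of macrophage stimulating protein, was 1.15-fold higher (8.01 and 8.25).

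In the TAM family, whose receptors bind GAS6 and PROS1 and aid the uptake of dying cells, AXL read 11.82 and 12.05 (1.14-fold higher). MERTK read 8.25 and 8.21 and TYRO3 7.99 and 7.94, 1.05-fold and 1.06-fold lower. ROR1, a receptor for WNT5A, was 1.11-fold higher (10.34 and 10.52), and ROR2 lay below the filter. The collagen receptor DDR2 was below the filter and differed by -0.255. No probe set used here named DDR1 or a neurotrophin receptor gene itself. The 3 TAM, the 2 HGF-family and the ROR1 values all lie within 2 robust SDs of all detected genes.

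Genes that work with these receptors were taken from a list of 94 further ligands, receptors, co-receptors, sheddases, adaptors and negative regulators. Of these 94, which were also chosen with earlier results of these data known, 72 were measured and 40 detected. They had a median of 0.005, with 21 higher and 19 lower. Past 0.32 on the log2 scale 2 were higher and 4 lower, where 2.92% and 5.08% of all detected genes passed that limit each way. At 1.5-fold 1 was higher and 1 lower.

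The ADAM sheddases, which cut ligands from the membrane, differed in both directions. All 5 on the list were detected, 4 of them higher (80.0%, against 40.5% of all detected genes), though ADAM10 by only 0.005. ADAM19, which can cleave neuregulins, read 10.16 on the control array and 10.79 on the miR-95 array (1.51-fold higher). ADAM17, the main sheddase of EGFR ligands, read 10.54 and 10.09 (1.40-fold lower), and ADAM10 was level (10.99 and 11.03). ADAM9 lay just under the limit of 0.32, at 0.315. Of the processing genes listed with them, the proprotein convertase FURIN differed by -0.145 and the inactive rhomboids RHBDF1 and RHBDF2 by 0.165 and 0.115. The 11 detected adaptors stayed between -0.115 (NCK1) and 0.075 (IRS1), with GRB2 at 0.015 and SHC1 at -0.085. Among 11 detected negative regulators SPRY2, a feedback inhibitor, was 1.27-fold higher (9.23 and 9.61). LRIG3 was 1.26-fold lower (8.12 and 7.82) and RASA2, which switches RAS off, was 1.75-fold lower (8.17 and 7.40). ERRFI1, an inhibitor of EGFR, differed by 0.005. Of the co-receptors, the syndecan SDC4, a heparan sulphate proteoglycan, was 1.31-fold lower (12.03 and 11.67) and SDC1 differed by 0.015. Of the other receptors RYK and PTK7 were detected, at -0.115 and 0.195. Among the 4 detected genes of the other ligands PROS1 was lowest at -0.215 and GAS6 highest at 0.025, while the 12 below the filter lay between -0.455 (BTC) and 0.495 (EPGN).

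**Figure D5:**
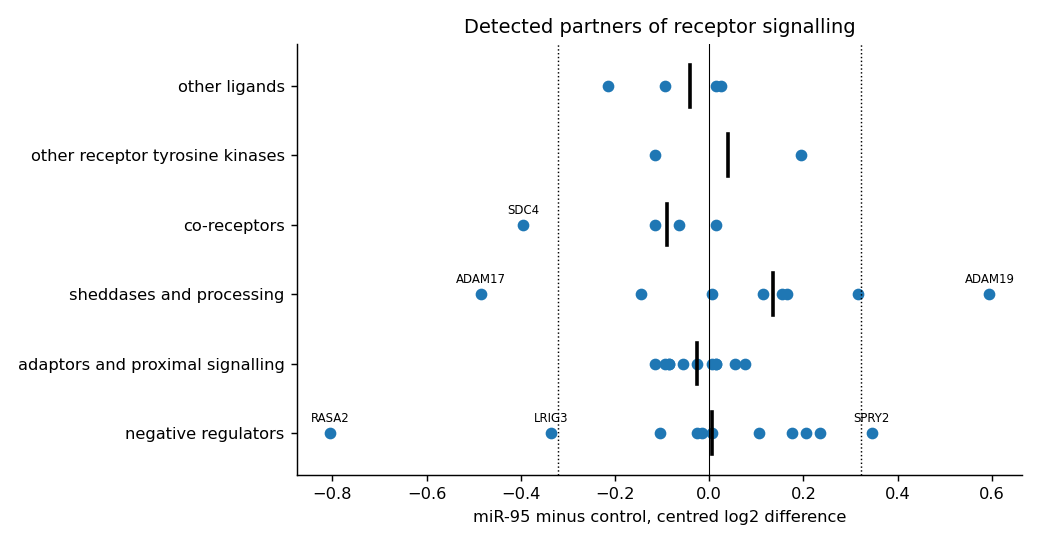
Centred log2 difference (horizontal axis) of the 40 detected partner genes in 6 subgroups, with the median of each as a black bar and 0.32 each way as dotted lines. The adaptors lie within 0.115 of 0, while the sheddases and processing genes reach from -0.485 (ADAM17) to 0.595 (ADAM19) and RASA2 lies at -0.805.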

How the data were processed

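Total RNA of 2 PC3 lines was measured on 1 Affymetrix array each. The authors deposited log2 values per probe set, rounded to 2 decimals. That they are log2 was read from their range (1.79 to 13.84). The submitters' processing notes name Affymetrix Expression Console 1.2. How probes were summarised, corrected for background and scaled, and on which build, is not given in the sources used.

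Symbols came from the platform annotation, which named 1 gene for 14088 probe sets and none for 9553. All 13864 genes matched the RefSeq table of GRCh38.p14 by Entrez identifier. Probe sets of a gene were averaged, arrays were centred on their median over genes (7.46 and 7.495) and genes were filtered on the mean of both arrays, a filter that does not favour genes that differ. Counts use 1.5-fold and 0.32 on the log2 scale. With 1 array per group no test was made, and the number of arrays limits the precision. The steps were tested on simulated data with much less noise than these arrays. That test checks the code, and not how many differences past a limit are noise. Alternatives were other centrings, filters (25th and 75th percentile, higher array, none), the brightest probe set and a linear offset of 50. Other background corrections need scanner files, which were not used here.

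The members and lists were chosen with earlier results of these data known. Named are detected members past 0.32, the highest and lowest of each family, members with several probe sets, members below the filter past 1.5-fold, and partners by the same limits. Further members and partners were named after their values were seen, as were the adjacent-gene runs, the flanking genes, the sequences shown and the motifs. Python 3.11.15, pandas 2.3.3 and statsmodels 0.14.6 (loess, span 0.4) were used.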

Additional observations from a re-analysis of the deposited data

How the results depend on the processing

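The 10 alternatives left 0 members past 1.5-fold in each case. The 6 that change single values kept the sign of 36 of 40 detected members, the exceptions being FGF2, IGFBP4, MERTK and MET, all near 0. EFNB1, EFNA3, FGF5, INSR and PDGFRL stayed past 0.32 on the log2 scale in all 6, FGFR1OP2 and KITLG in 5 and IGFBP3 in 4. These settings are not independent checks. Leaving out the centring adds 0.035 to every value. The brightest probe set changes the detected members only through the centring, since none of the 40 has several probe sets. Kept signs and limits in those settings were therefore largely fixed in advance.

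The filter moved the medians. Without one the median was -0.035 for receptors and -0.01 for members, with a filter at the 25th percentile it was -0.035 for receptors and 0.075 for ligands, and with one at the 75th it was 0.04 and 0.255. With a filter at the 75th percentile 16 members were left and 3 passed 0.32, 3 higher (18.75%, against 2.62% of all genes kept) and 0 lower (against 4.7%). Looser filters narrowed the gap on the higher side. Without a filter 5.88% of members were higher past 0.32 (against 3.92% of all genes) and 2.94% lower (against 6.32%). At the 25th percentile 8.33% were higher (against 3.18%) and 2.78% lower (against 5.28%). The lower count was 1 with a linear offset of 50, and 1 with centring within 25% bins of gene span, which was added after the data were seen. Over all genes, 187 passed 1.5-fold and 1419 passed 0.32 without a filter, 880 passed 0.32 with the filter at the 25th percentile, 31 passed 1.5-fold and 254 passed 0.32 with that at the 75th, and 48 passed 1.5-fold with the offset. The split of all detected genes at 0.32, 203 higher and 353 lower, was 272 and 251 without centring, 264 and 269 after loess, 260 and 263 after quantile normalization, and 269 and 224 within bins of span. The split of the members was 6 and 2 under the first 3 of these and 6 and 1 within bins of span. The 6 higher members within bins of span were not the same genes. There IGFBP3, at 0.32, fell just under the exact limit of 0.3219, and KDR passed it at 0.35. No paired analysis was possible because each group has 1 array and the result comes from no test.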
